A study of Mus musculus with 4 samples.

Results

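The 10 genes described here encode regulators that act in the heart fields, the regions of the early embryo from which the heart is built. They are the homeobox genes Nkx2-5 and Isl1, the T-box genes Tbx2, Tbx3, Tbx5, Tbx18 and Tbx20, the basic helix-loop-helix genes Hand1 and Hand2, and Zfpm2, which encodes a zinc-finger cofactor of GATA factors. They were chosen by name, each matched to the gene symbol of the deposited table, and all 10 were found among 32555 genes with an exon length above 0. The study transferred 6 transcriptional factors into fat-derived cells with lentivirus and read out RNA by sequencing after depletion of ribosomal RNA. The factors are not named in the labels. From knowledge of the study, Gata4, Gata6, Klf15, Mef2a, Myocd and Smarcd3 were taken as the candidates, and none of the 10 genes is among them, so reads of the 10 were read as transcripts of the cells' own genes.

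Adipose-derived regenerative cells (ADRCs) are adherent mesenchymal cells grown out of the inguinal and axillary fat of mice. The ADRC group held 2 libraries of passage 2 cells from mice of 8 weeks, with the strain label C57BL/6J and no transfer of factors in their labels. The 6-factor (6F) group held 2 libraries of GFP-positive cells, also labelled passage 2. They were collected by fluorescence-activated sorting 3 weeks after transfer of the factors, from mice labelled C57BL/6-Tg (Myh6-EGFP) MG3Tm; MG3, in which EGFP is under the promoter of the cardiac alpha myosin heavy chain gene, Myh6. The sort therefore selected cells on the activity of a cardiac promoter, and transduction, time in culture, sorting and labelled strain cannot be told apart as sources of a difference. By title, however, the ADRC libraries are a reporter control, a description that their strain label does not bear out. Whether each library was grown from its own culture is not stated, so the spread behind the p-values may be technical. Within a group the letters a and b only tell the libraries apart. In the column names, 6F a carries a different L tag from 6F b and both ADRC libraries. The part of that tag in differences between 6F a and 6F b was not tested.

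In the embryo, cells of the first heart field give rise mainly to the left ventricle, and cells of the second heart field add the right ventricle, the outflow tract and parts of the atria. Nkx2-5, Tbx5, Tbx20, Hand1 and Hand2 promote the growth and the muscle program of these chambers, Isl1 marks progenitors of the second field, and Tbx2, Tbx3 and Tbx18 act where chamber muscle is held back, in the atrioventricular canal, the conduction system and the sinus node. Several of them, among them Tbx18 and Tbx3, are also used by mesenchymal cells outside the heart.

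Exon reads numbered 2273897 and 2662128 in ADRC a and b, and 7593772 and 6986223 in 6F a and b. As a share of mapped reads they came to 14.2% in ADRC a, 16.1% in ADRC b, 60.2% in 6F a and 59.6% in 6F b. Values below are CPM, that is exon reads relative to the library total after TMM scaling, and differences between groups are log2 fold changes of 6F against ADRC from edgeR's quasi-likelihood test, adjusted over 12573 genes with a threshold of 0.05. The 9 mesenchymal markers summed to 3753 and 3601 CPM in ADRC and to 2421 and 2947 CPM in 6F. In 6F, 4 of them (Thy1, Eng, Cd44 and Pdgfrb) were lower and 3 (Nt5e, Ly6a and Vcam1) higher. Of these 3, Nt5e was kept by the read filter only through its 6F reads. Of the 9 markers that define cardiomyocytes, 6 were higher in 6F. Of those 6, 4 were kept by the read filter only through their 6F reads, so their calls are not independent of it. The other 2 include Myh6, whose promoter drove the sorted reporter. The summed level of the 9 was 22.1 and 31.2 CPM in ADRC against 2330 and 1532 CPM in 6F. Myh6 (1546 CPM in 6F a and 870 CPM in 6F b) and Tnnt2 (710 and 603 CPM) carried that 6F sum. Myh7, Actn2 and Myl2 did not pass, with log2 fold changes of 0.25, -1.06 and 0.37. The 6 candidate factors were all higher in 6F, although Gata4 was kept by the filter only through its 6F reads. Their summed level was 141 and 136 CPM in ADRC, 7448 CPM in 6F a and 3345 CPM in 6F b.

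Of the 10 heart-field genes, 0 passed the test as higher in 6F cells and 2, Tbx18 and Zfpm2, passed as lower with TMM scaling, while both came out higher when libraries were scaled by mapped reads. Over all tested genes, 24.2% passed as higher and 22.8% as lower. Only 5 of the 10 had enough reads to be tested, namely Tbx2, Tbx3, Tbx5, Tbx18 and Zfpm2, and the other 5 had between 0 and 19 reads over the 4 libraries together. Nkx2-5 and Hand1 had no read in any library. The most abundant, Tbx3, Tbx18 and Zfpm2, were at 12.6 to 36.5 CPM in every library, and the others were at or under 11.8 CPM. In bulk RNA, fewer cells that use a gene and less RNA per cell cannot be told apart.

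**Figure D1:**
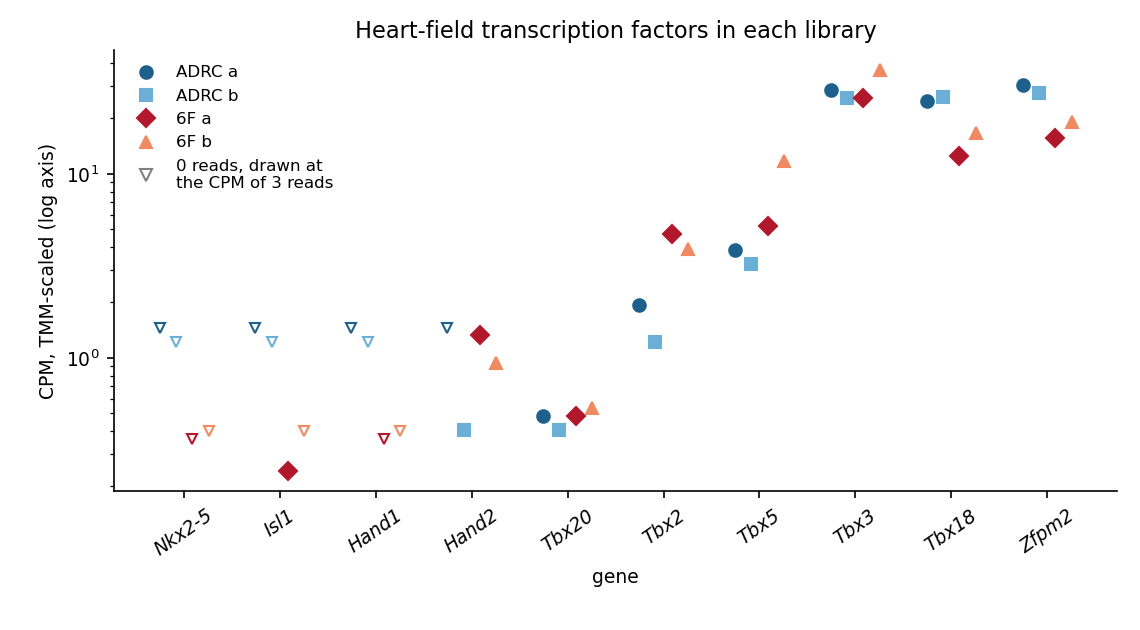
Level of each of the 10 genes in each of the 4 libraries, in CPM after TMM scaling on a log axis, with 1 point per library. Open triangles stand for 0 reads and are drawn at the CPM that 3 reads would give in that library, so they mark the depth and not a level. Tbx18 and Zfpm2 are lower in both 6F libraries than in both ADRC libraries, Tbx2 and Tbx5 are higher, and Nkx2-5 and Hand1 hold no read.

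Nkx2-5, the NK homeobox factor of the early heart, lies on chromosome 17 from 26838664 to 26841565 (GRCm38, as are all positions here). It had 0 reads in ADRC a, ADRC b, 6F a and 6F b. A count of 0 in the pooled 6F libraries allows a level of up to 0.191 CPM, and in the shallower ADRC libraries of up to 0.659 CPM, taken as 3 reads over the group. Expression under these levels was not detectable at this depth. Intervals and floors of this kind cover counting error only.

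Isl1, the LIM-homeodomain factor of the second heart field (chromosome 13, 116298281 to 116309689), had 0 and 0 reads in ADRC and 2 and 0 reads in 6F a and b. Both groups were under the floor of 3 reads, and no fold is given. Hand1, which acts in the left ventricle and in extraembryonic tissues, is on chromosome 11 from 57828705 to 57832818 and had 0 reads in all 4 libraries.

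Hand2, the relative of Hand1 that is required for the right ventricle, is on chromosome 8 from 57320983 to 57324633. It had 0 and 1 reads in ADRC a and b, and 11 and 7 reads in 6F a and b, or 0 and 0.405 CPM against 1.33 and 0.939 CPM. The groups did not overlap, but the 6F level stayed near 1 CPM. The pooled ratio of 6F to ADRC was 5.20, with a 95% exact (Clopper-Pearson) counting interval of 0.821 to 217, so a difference was not detectable at this depth. The antisense gene Hand2os1 overlaps Hand2 and had 0, 0, 0 and 2 reads, and because the labels do not name a kit that marks strand, reads of the pair cannot be told apart.

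Hand2 was, after its values were seen, chosen to be shown with its promoter, beside that of Tbx18, since Hand2 was read mostly in 6F and Tbx18 passed the test as lower under TMM scaling. RefSeq sequences of 250 bases before to 50 bases after the gene start (GRCm38.p6) were at hand for 5 of the 10 genes, Hand2, Isl1, Nkx2-5, Tbx18 and Tbx20. Both strands were searched for GATA sites in their 4 forms (AGATAA or, with a final G, AGATAG, and likewise with an initial T the form TGATAA or the form TGATAG). The other motifs were E-boxes (CANNTG, the site class of Hand factors), T-box core sites (GGTGTGA or the shifted form AGGTGTG), the TATA box TATAAA and the CArG box of serum response factor, and none of the motifs overlapped another in the windows printed. Matches are in capitals.
Hand2 (chr8:57320733-57321032, plus strand): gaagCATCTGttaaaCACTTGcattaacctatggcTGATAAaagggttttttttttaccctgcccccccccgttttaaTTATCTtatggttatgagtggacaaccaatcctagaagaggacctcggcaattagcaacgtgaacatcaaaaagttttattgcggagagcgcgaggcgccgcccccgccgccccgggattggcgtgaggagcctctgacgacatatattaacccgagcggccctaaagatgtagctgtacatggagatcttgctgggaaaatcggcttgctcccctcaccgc
Tbx18 (chr9:87731211-87731510, minus strand): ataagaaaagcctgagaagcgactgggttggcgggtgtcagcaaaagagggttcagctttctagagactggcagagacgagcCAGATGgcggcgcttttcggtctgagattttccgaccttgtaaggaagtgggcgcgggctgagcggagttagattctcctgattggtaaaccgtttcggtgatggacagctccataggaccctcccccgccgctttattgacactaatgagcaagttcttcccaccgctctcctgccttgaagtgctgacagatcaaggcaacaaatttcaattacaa
The Hand2 window held 2 GATA sites, read as TGATAA and TTATCT, and 2 E-boxes. The Tbx18 window held 1 E-box and no other match. Isl1, nearly unread in both groups, also held 2 GATA sites, so a GATA site did not set Hand2 apart among the 5. Of 32851 promoters of that length in the same table, 29.8% held a GATA site, 72.3% an E-box, 8.41% a T-box core site, 13.6% a TATA box and 1.63% a CArG box. A match is a description of the letters, and no binding was measured.

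Tbx20, a T-box factor needed for chamber growth (chromosome 9, 24718138 to 24774303), had 1 and 1 reads in ADRC and 4 and 4 reads in 6F. That is 0.481 and 0.405 CPM against 0.483 and 0.537 CPM. By these values the groups of Tbx20 did not overlap either, so with 2 libraries in each group a lack of overlap alone is not a result. The share of all genes without overlap was not computed. The pooled ratio was 1.16 with a counting interval of 0.231 to 11.2, so the reads fix neither a rise nor a fall.

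Tbx5, which drives the first heart field and, with Nkx2-5, chamber genes such as Nppa, lies on chromosome 5 from 119832668 to 119885219. It had 8 and 8 reads in ADRC a and b and 43 and 88 reads in 6F a and b, or 3.85 and 3.24 CPM against 5.19 and 11.8 CPM. Both 6F libraries were above both ADRC libraries, and 6F b was 2.27 times 6F a (95% counting interval 1.56 to 3.36). The log2 fold change was 1.26 (SE 0.55, 95% interval -0.07 to 2.59, edgeR adjusted p = 0.105), which did not pass the test. The value rests on 6F b, since the log2 fold change was 0.59 (edgeR adjusted p = 0.313) without that library and 1.75 (edgeR adjusted p = 3.41e-05) without 6F a. In each fit with 1 6F library that library is assumed to vary like the ADRC pair, and such fits made 4231 and 4454 genes higher, against 3038 with all libraries, so their p-values are given as values and not as calls.

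Library 6F b also held more reads of the macrophage markers, and of most mesothelial ones, than 6F a. The macrophage markers, 6 of 6 measured, summed to 256 and 271 CPM in ADRC, 10.3 CPM in 6F a and 109 CPM in 6F b, and 3 of them, Ptprc, Adgre1 and Fcgr3, had 0 reads in 6F a. Of the 7 mesothelial and epicardial markers, Msln had 1 and 29 reads in 6F a and b, Upk3b 2 and 17, Lrrn4 0 and 16, and Upk1b 0 and 10, with 0 or 1 reads for each in the ADRC libraries. Aldh1a2 of the same list went the other way, with 136 reads (16.4 CPM) in 6F a and 43 (5.77 CPM) in 6F b, Krt19 was at 12.1 and 23.5 CPM, and Wt1 had 2 and 9 reads. The summed level of the 7 was 63.5 and 72.8 CPM in ADRC and 29.1 and 40.1 CPM in 6F a and b. Their part in the Tbx5 and Tbx3 values of 6F b was not tested.

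Tbx2, a repressor of chamber genes in the atrioventricular canal, lies on chromosome 11 from 85832551 to 85841948. It had 4 and 3 reads in ADRC and 39 and 29 reads in 6F, or 1.93 and 1.21 CPM against 4.71 and 3.89 CPM. The groups did not overlap. The log2 fold change was 1.46 (SE 0.53, 95% interval 0.19 to 2.73, edgeR adjusted p = 0.0609), which did not pass the test. Tbx2 was kept by the read filter only through its 6F reads, so its test is not independent of the filter and these values are given as a description. The log2 fold change was 1.62 without 6F b and 1.33 without 6F a, each with a lone 6F library.

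Tbx3, the closest relative of Tbx2, keeps conduction tissue from becoming chamber muscle and lies on chromosome 5 from 119670669 to 119684724. It had 59 and 64 reads in ADRC and 213 and 272 reads in 6F, or 28.4 and 25.9 CPM against 25.7 and 36.5 CPM. The groups overlapped, with means of 27.1 ± 1.77 and 31.1 ± 7.62 CPM (SD, n = 2 each). The log2 fold change was 0.20 (SE 0.24, 95% interval -0.39 to 0.78, edgeR adjusted p = 0.534). The interval reaches from 1.31-fold lower to 1.72-fold higher. With a lone 6F library it was 0.44 (edgeR adjusted p = 0.0173) without 6F a and -0.044 (edgeR adjusted p = 0.834) without 6F b. Tbx3os1, the antisense gene that overlaps Tbx3, had 0, 0, 0 and 2 reads.

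Tbx18, a T-box repressor known from the sinus node, the epicardium and mesenchymal cells around vessels, is on chromosome 9 from 87702800 to 87731260, and its promoter is printed above. It had 52 and 65 reads in ADRC a and b and 104 and 125 reads in 6F a and b. Scaled for depth these were 25.03 and 26.3 CPM against 12.6 and 16.8 CPM. Both 6F libraries lay below both ADRC libraries, and the difference passed the test as 1.75-fold lower (log2 fold change -0.81, SE 0.25, 95% interval -1.40 to -0.22, edgeR adjusted p = 0.0352). The call was lost without ADRC a (-0.87, edgeR adjusted p = 0.142) or without ADRC b (-0.79, edgeR adjusted p = 0.182), with the direction kept. Of the 6 mural cell markers, 2 were higher in 6F, 1 was lower, 2 did not pass and 1 had too few reads, and their summed level was 95.3 and 75.7 CPM in ADRC and 561 and 351 CPM in 6F. Mcam carried that sum, with 29.4 and 22.3 against 509 and 290 CPM, and the other 5 markers came to 65.9 and 53.4 CPM in ADRC and 52.5 and 60.9 CPM in 6F. The part of the mural and mesenchymal markers in the Tbx18 and Zfpm2 values was not tested.

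Zfpm2, also called Friend of GATA 2, binds GATA4 and modulates its targets in the heart and the coronary vessels. It spans chromosome 15 from 40655042 to 41104592. It had 63 and 68 reads in ADRC and 130 and 143 reads in 6F, or 30.3 and 27.5 CPM against 15.7 and 19.2 CPM. The groups did not overlap, and Zfpm2 passed the test as 1.66-fold lower (log2 fold change -0.73, SE 0.22, 95% interval -1.26 to -0.19, edgeR adjusted p = 0.0354). Without ADRC a (-0.69, edgeR adjusted p = 0.198) or ADRC b (-0.82, edgeR adjusted p = 0.140) the call was lost. The calls of Tbx18 and Zfpm2 were also lost with the DESeq2 Wald test, with scaling by library size alone and with the 6F libraries thinned to the ADRC depth.

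**Figure D2:**
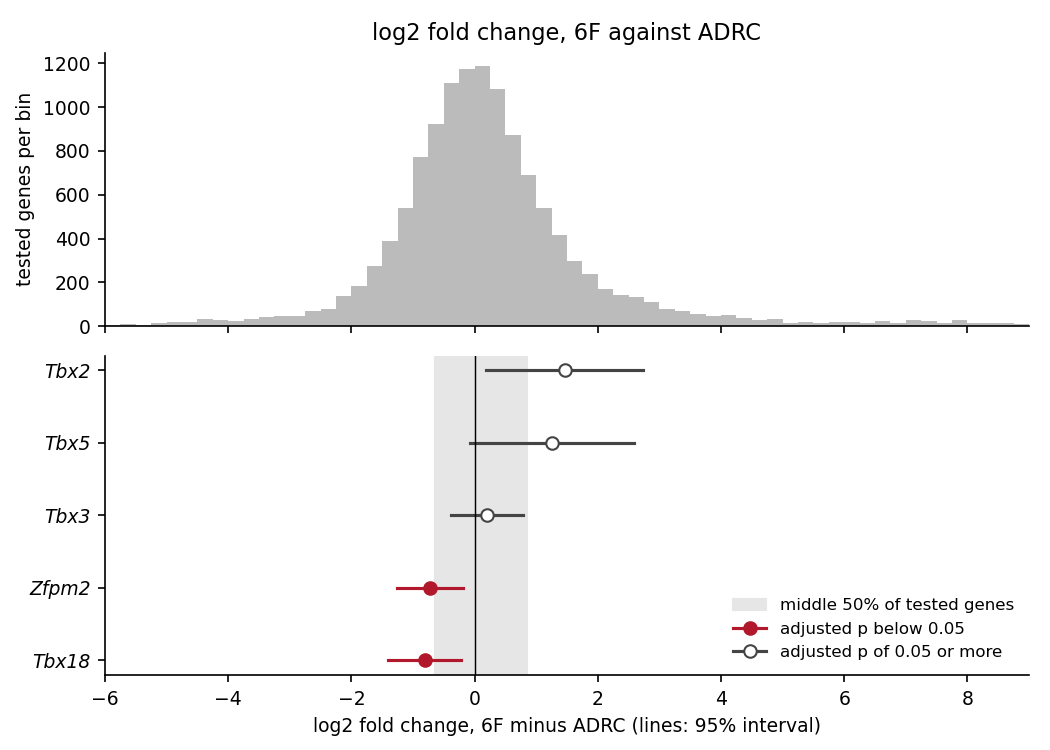
Top, the number of tested genes per bin of log2 fold change of 6F against ADRC; bottom, the 5 tested heart-field genes with their 95% intervals, filled where the adjusted p is below 0.05, over a grey band that holds the middle 50% of tested genes (-0.65 to 0.85). Tbx18 and Zfpm2 lie just left of the band, Tbx3 inside it and Tbx5 and Tbx2 to its right with wide intervals.

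Set among all tested genes, the fold changes of the 5 were not extreme. Of the tested genes, 20.5% had a lower log2 fold change than Tbx18, 22.6% than Zfpm2, 55.0% than Tbx3, 82.5% than Tbx5 and 85.3% than Tbx2. The falls of Tbx18 and Zfpm2 depend on how libraries are scaled. With mapped reads as library size in place of exon reads, an alternative chosen after seeing the data, both came out higher in 6F (log2 fold change 1.39, edgeR adjusted p = 0.000873, and 1.48, edgeR adjusted p = 0.000302). Under that scaling the median of all tested genes was itself 2.33 against 0.07, so both stood below it in either case. In the authors' deposited table the mean RPKM of Tbx18 was 2.64 times and that of Zfpm2 2.80 times as high in 6F, where the median log2 ratio of RPKM was 2.26. The authors' deposited table also gives normalized means, 1.86-fold lower in 6F for Tbx18 and 1.75-fold lower for Zfpm2, and a corrected p-value of 1 for each of the 10 genes.

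**Figure D3:**
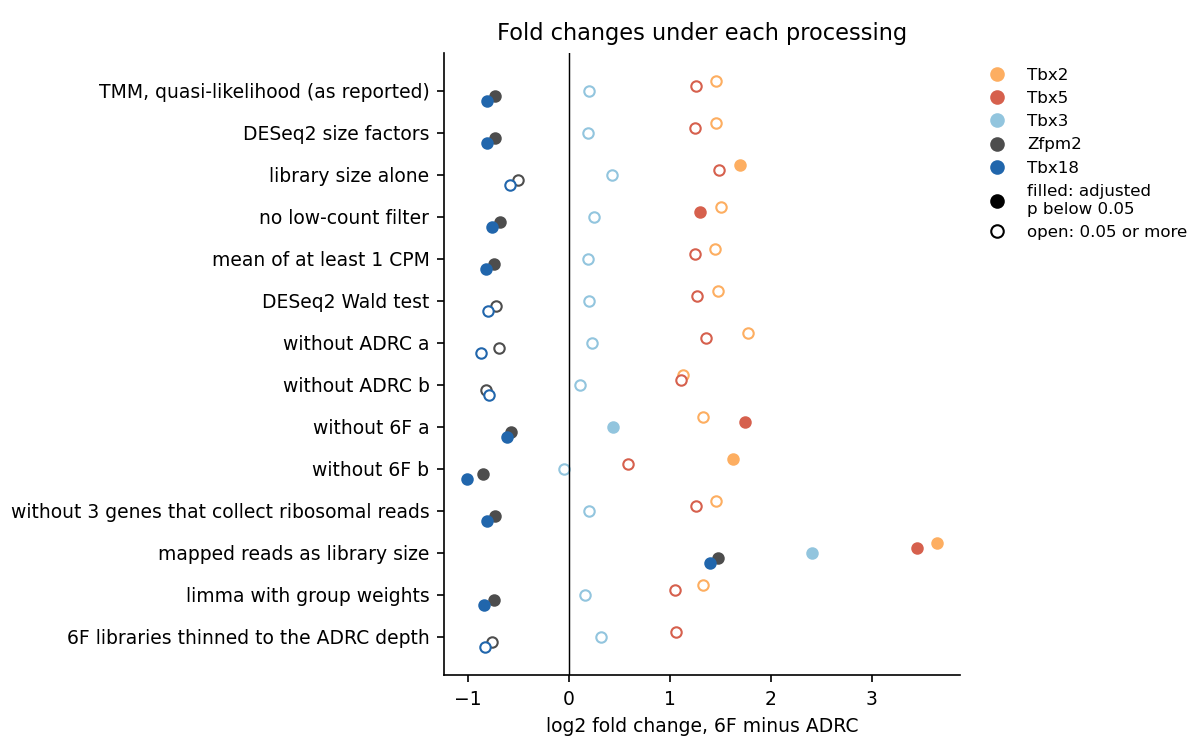
Log2 fold change of 6F against ADRC for the 5 tested genes, with 1 line of points for each processing, filled where the adjusted p is below 0.05. In each line Tbx18 and Zfpm2 lie left of Tbx3, and Tbx3 lies left of Tbx5 and, where tested, Tbx2. Scaling by mapped reads moves all 5 to the right, Tbx18 to 1.39 and Tbx2 to 3.64.

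Ratios between these genes within a library do not depend on scaling, and they showed how the make-up of the set differed. Per exon length (TPM, computed from exon reads and exon length), Tbx3, Tbx18 and Zfpm2 stood close to each other in ADRC, at 15.2, 15.2 and 17.5 TPM in library a and 13.6, 15.7 and 15.6 TPM in library b. In 6F a they were at 17.4, 9.68 and 11.5 TPM, and in 6F b at 24.7, 12.9 and 14.03 TPM, so that Tbx3 led in both 6F libraries. The ratio of Tbx3 to Tbx18 was 0.998 and 0.866 in ADRC a and b and 1.80 and 1.91 in 6F a and b. Pooled over a group it was 0.925 (95% counting interval 0.712 to 1.20) in ADRC and 1.86 (1.59 to 2.19) in 6F.

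The ratio of Tbx3 to Zfpm2 went the same way, from 0.871 (0.675 to 1.12) in the pooled ADRC reads to 1.65 (1.42 to 1.92) in the pooled 6F reads. The ratio of Zfpm2 to Tbx18, the pair that fell, was 1.06 (0.821 to 1.37) and 1.13 (0.945 to 1.35), with intervals that overlap. The less abundant T-box genes gained on Tbx18 too. Tbx5 stood at 0.138 (0.0764 to 0.234) of Tbx18 in ADRC and at 0.577 (0.462 to 0.719) in 6F, and Tbx2 at 0.0778 (0.0306 to 0.166) and 0.386 (0.290 to 0.509). Tbx18 had the lowest fold change of the tested genes of the set, and against Tbx3 the differences were smaller. Tbx5 stood at 0.149 (0.0827 to 0.252) of Tbx3 in ADRC and at 0.310 (0.254 to 0.377) in 6F, with intervals that nearly touch. Tbx2 stood at 0.0842 (0.0332 to 0.179) of Tbx3 and at 0.207 (0.159 to 0.268), with intervals that overlap. Tbx3, Tbx18 and Zfpm2 together made up 92.3% and 92.8% of the summed TPM of the 10 genes in ADRC a and b, and 77.5% and 77.9% in 6F a and b. These intervals do not cover the spread between cultures.

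**Figure D4:**
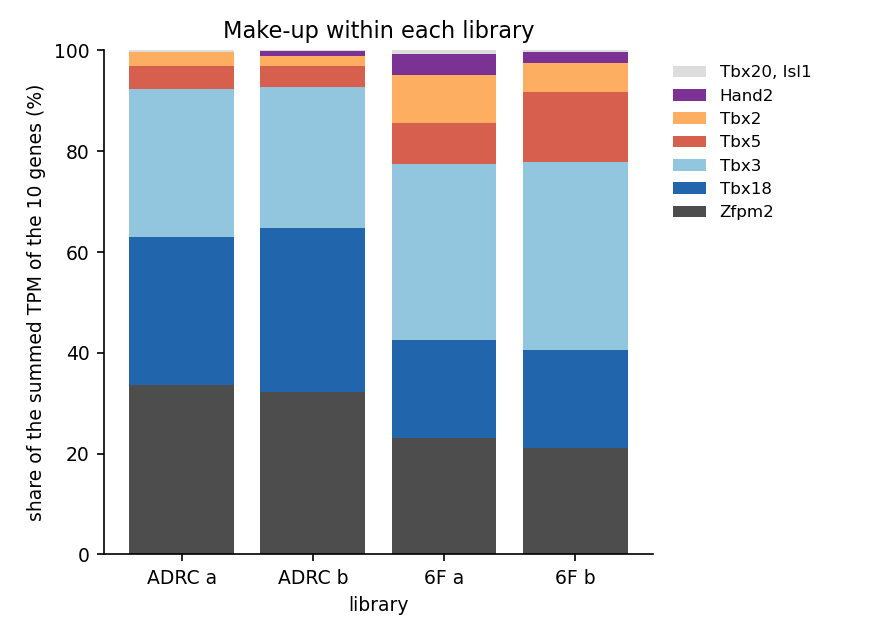
Share of each gene in the summed TPM of the 10 genes, in percent, with 1 bar per library. Zfpm2 and Tbx18 take a smaller share in both 6F libraries, and Tbx3, Tbx5 and Tbx2 a larger one; Nkx2-5 and Hand1 have no reads and no segment.

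Ordered by level per length, Zfpm2, Tbx18 and Tbx3 came first in ADRC, at 16.6 ± 1.34, 15.5 ± 0.350 and 14.4 ± 1.12 TPM (SD, n = 2 each), and neighbours in that order lay within their spread. Tbx5 (2.16 ± 0.291 TPM) and Tbx2 (1.24 ± 0.410 TPM) followed. In 6F the order was Tbx3 (21.1 ± 5.16 TPM), Zfpm2 (12.8 ± 1.80), Tbx18 (11.3 ± 2.29), Tbx5 (6.61 ± 3.64), Tbx2 (4.31 ± 0.582) and Hand2 (1.75 ± 0.426). There the ranges of Zfpm2 and Tbx18 overlapped, while Tbx3 lay above both in each library. Of the 32555 genes, 79.6% had a lower mean TPM than Tbx3 in 6F.

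The directions given for the following 7 lists are those under TMM scaling. With mapped reads as library size, 0 of their genes passed as lower and most passed as higher, among them 8 of 9 tested basic helix-loop-helix genes, 9 of 10 partners of Zfpm2, 19 of 23 other regulators and 6 of 8 signals. Of the genes named below as fallen, Tcf3 (0.71), Twist2 (0.91), Nr2f2 (1.35), Wnt5a (1.34) and Notch1 (1.36) passed as higher there, all under the median of 2.33. Of 12 other T-box genes, 2 could be tested and 0 passed, and Tbx15, which patterns limb and fat mesenchyme, had 176 and 189 reads in ADRC and 534 and 461 in 6F (log2 fold change -0.35, SE 0.16, edgeR adjusted p = 0.111). None of the 8 NK homeobox relatives of Nkx2-5 had enough reads to be tested. Of 12 basic helix-loop-helix partners and relatives of Hand, 9 were tested, 0 were higher and 5 were lower, with a median log2 fold change of -0.65 against 0.07 over all tested genes. Id1, an inhibitor of this class, fell (-1.58, SE 0.24, edgeR adjusted p = 0.00319), as did Tcf3, its E-protein partner (-1.49, SE 0.19, edgeR adjusted p = 0.00181), and Twist2, a mesenchymal factor (-1.30, SE 0.25, edgeR adjusted p = 0.00727), which lost its call without ADRC a. The count of lower genes in that list was 2 without ADRC a and 4 without ADRC b.

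Of 13 LIM-homeodomain genes and LIM cofactors around Isl1, 9 were tested and 1 was lower. The 3 that passed as higher, Lhx1, Lmo1 and Lhx6, were kept by the read filter only through their 6F reads and so had to differ, and their reads are given as a description. Lhx1, known from kidney and brain, had 0 and 0 reads in ADRC and 237 and 41 in 6F, at least 26.8-fold higher with the group floor of 3 reads, and at least 8.34-fold without 6F a. Lmo1, a LIM-only cofactor, had 0 and 1 against 151 and 56 reads, a pooled ratio of 59.8 (95% counting interval 10.6 to 2374). That ratio was 32.5 without ADRC a and 34.2 without 6F a, and without ADRC b it is a bound of 9.11. Lhx6, of interneurons and teeth, had 1 and 1 against 37 and 18 reads, a ratio of 7.95 (2.10 to 67.3).

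The 11 genes listed as partners of Zfpm2 hold GATA factors, nuclear receptors, the related cofactor Zfpm1 and the corepressor genes Ctbp1, Ctbp2, Rbbp4 and Rbbp7. Of these 10 were tested, 1 was higher and 3 were lower, with a median of -0.045, and the lower ones were Gata3, Nr2f2 and the histone-binding gene Rbbp4 (-0.46, edgeR adjusted p = 0.0427, named after its values were seen). Gata1, the blood-lineage GATA factor, had 0 and 0 reads in ADRC and 62 and 26 in 6F, at least 8.48-fold higher, and at least 3.87-fold without ADRC b, 4.61-fold without ADRC a and 5.29-fold without 6F a. It was kept by the filter only through 6F. Gata3 fell (-2.24, SE 0.52, edgeR adjusted p = 0.0146, from 13 and 12 to 7 and 11 reads), as did Nr2f2, the nuclear receptor of atrial and venous cells (-0.85, SE 0.24, edgeR adjusted p = 0.0261). Both calls were lost without either ADRC library, and that of Nr2f2 also with library size alone.

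Of 36 other regulators of the heart fields, 21 were tested, 6 were higher and 5 lower, with a median of -0.14, and 3 of the 6, among them Hopx and Msx1, were kept by the filter only through 6F. Hopx, a homeodomain-only partner of cardiac factors, had 1 and 1 reads in ADRC and 59 and 36 in 6F, a ratio of 13.7 (95% counting interval 3.70 to 115). Msx1 had 4 and 4 reads in ADRC and 111 and 37 in 6F, a ratio of 5.35 (2.64 to 12.6). Irx1 fell (-2.32, SE 0.28, edgeR adjusted p = 0.00137). Shox2, the homeobox gene of the sinus node, had 105 and 170 against 322 and 582 reads and did not pass (-0.035, SE 0.35, edgeR adjusted p = 0.942). The calls of Hopx and Msx1 were lost without either ADRC library, and the counts were 2 higher and 3 lower without ADRC a, and 0 and 2 without ADRC b. Among 17 signals of the heart fields, 9 were tested, 0 were higher and 3 lower (median -0.79), namely Wnt11 (-2.01, SE 0.66, edgeR adjusted p = 0.0464), Wnt5a (-0.87, SE 0.25, edgeR adjusted p = 0.0282) and Notch1 (-0.86, SE 0.18, edgeR adjusted p = 0.0104). The 3 calls were lost without either ADRC library, and those of Wnt11 and Wnt5a also with library size alone. That of Wnt11 was further lost with the DESeq2 Wald test, a filter at a mean of 1 CPM, no low-count filter and limma with group weights.

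Genes of the chambers and the conduction system, listed as targets of heart-field factors, had larger fold changes in these libraries. The part of the 10 genes or of the candidate introduced factors in these values was not tested. Of 26, 17 were tested, 14 were higher and 0 lower, with a median of 3.64. When any 1 library was left out, the median lay between 3.55 and 3.98, under the same kind of filter. Of the 17, 10 were kept only through their 6F reads, so the count and the median are not independent of the filter. Of the other 7, 5 were higher, and the log2 fold changes of the 7 ran from -0.29 for Gja1 to 8.09 for Myh6. Cacna1h, a T-type calcium channel, had 0 and 0 reads in ADRC and 66 and 206 in 6F, at least 26.2-fold higher against the floor. Myh6, whose promoter drove the sorted reporter, went from 4.33 and 4.45 CPM to 1546 and 870 CPM (8.09, SE 0.42, edgeR adjusted p = 0.000111). Popdc2, a membrane protein of heart muscle and pacemaker cells, went from 1.93 and 1.62 to 392 and 229 CPM. Its pooled ratio was 179 (counting interval 90.8 to 415). Like Cacna1h, Popdc2 was kept by the read filter only through its 6F reads, so these values are given as a description. Myl2, the ventricular light chain, did not pass, with 2.41 and 2.02 against 1.33 and 4.43 CPM (0.37, SE 0.75, edgeR adjusted p = 0.709). The 6F cells were sorted on the promoter of one gene of this list, and the part of the sort in its count was not tested.

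**Figure D5:**
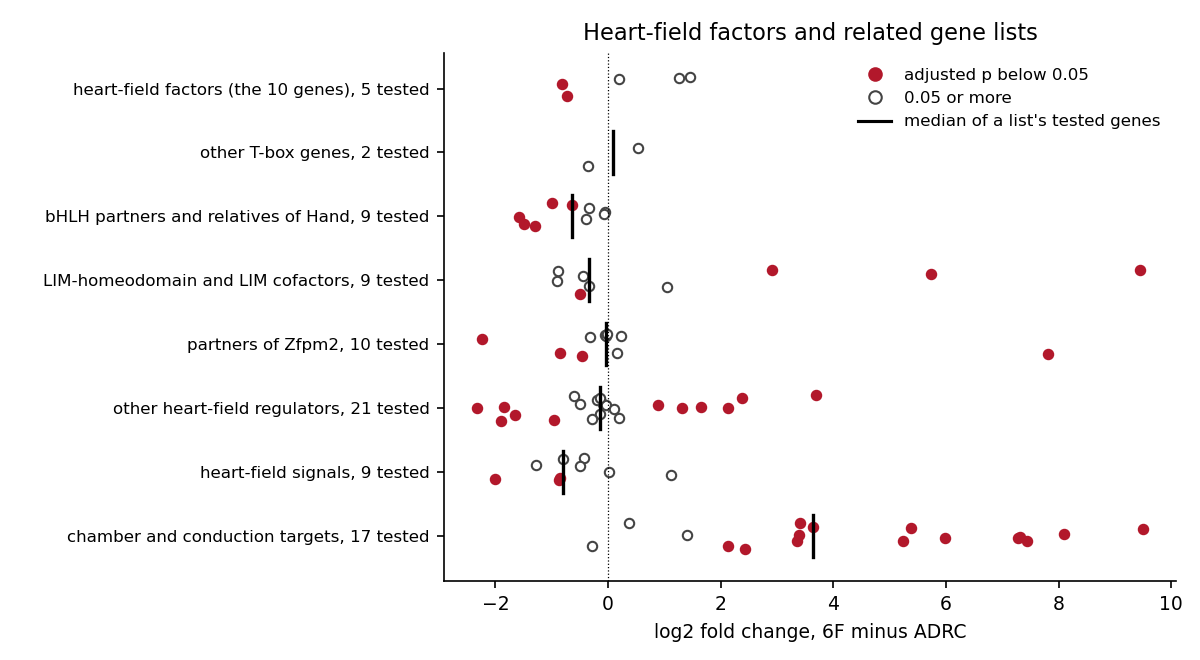
Log2 fold change of 6F against ADRC for every tested gene of the 10 heart-field factors and of 7 related lists, with filled points for an adjusted p below 0.05 and a bar for each list's median. Most chamber and conduction targets lie far to the right (median 3.64), but 10 of their 17 tested genes were kept by the read filter only through 6F reads. Under TMM scaling the medians of the regulator and signal lists lie near or below 0. Single genes such as Lhx1, Gata1 and Hopx lie far to the right, and these were also kept only through their 6F reads.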

How the data were processed

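RNA of 2 ADRC and 2 6F libraries was depleted of ribosomal RNA. Per the submitters' processing notes, reads were placed on GRCm38; the sources used here do not name the aligner or counter. The table that the authors deposited has 50600 genes and, per the file headers, whole-number counts of exon reads per library, used here as deposited, together with the authors' group means in RPKM, a normalized signal as group means, and a fold change score with p-value and corrected p-value from a comparison named EDGE. A further 52 columns of per-sample values were not used here. Column names gave the group but no replicate number. The 18045 genes with an exon length of 0 were left out, and 99.5% of the remaining gene IDs were found in GENCODE M21. Positions are those of the deposited table, 1-based. Mapped reads per library were recovered from the authors' group mean RPKM.

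Counts were fitted with edgeR 4.0.16 in R 4.3.3 (filterByExpr, TMM, quasi-likelihood test, Benjamini-Hochberg adjustment). The limma version was 3.58.1 and the DESeq2 version 1.42.0. Exon reads per library ran from 2273897 to 7593772. TPM were computed from exon reads and exon length. Counting intervals are 95% exact (Clopper-Pearson), and the floor is 3 reads over a group. The procedure was tested on simulated data. The alternatives were DESeq2 size factors, library size alone, a filter at a mean of 1 CPM or none at all, the DESeq2 Wald test, leaving out each library, thinning of the 6F libraries and removal of 3 genes that collect ribosomal reads. Added after seeing the data were mapped reads as library size and limma with group weights. From each related list at most 3 called genes of largest change and 1 uncalled gene are named; genes singled out beyond that were chosen after their values were seen. The 10 genes and all lists were chosen with earlier results of these data known. Sequences are from RefSeq, GRCm38.p6.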

Additional observations from a re-analysis of the deposited data

How the results depend on the processing

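The direction of Tbx2, Tbx5, Tbx18 and Zfpm2 was the same under every alternative run except that mapped reads as library size turned Tbx18 to 1.39 and Zfpm2 to 1.48. That scaling also gave 3.64 for Tbx2, 2.40 for Tbx3 and 3.45 for Tbx5, with 11938 genes higher and 232 lower, 5 of the 10 genes called higher and 0 lower. The calls of Tbx18 and Zfpm2 were lost with library size alone (-0.58 and -0.50, edgeR adjusted p = 0.0909 and 0.104), with the DESeq2 Wald test (-0.80 and -0.72, adjusted p = 0.122 and 0.137) and with 6F libraries thinned to the ADRC depth (-0.83 and -0.76, edgeR adjusted p = 0.0559 and 0.0579), so that 0 of the 10 genes were lower there. The cause was not tested. Library size alone called Tbx2 (1.69, edgeR adjusted p = 0.0368), and no low-count filter called Tbx5 (1.303, edgeR adjusted p = 0.0459), so that 1 gene was higher in each. Tbx2 was kept by the read filter only through its 6F reads, so its call is not independent of the filter. After thinning, Tbx2 could not be tested.

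Leaving out 1 library gave log2 fold changes of 1.13 to 1.78 for Tbx2, -0.044 to 0.44 for Tbx3, 0.59 to 1.75 for Tbx5, -1.004 to -0.61 for Tbx18 and -0.85 to -0.58 for Zfpm2. It left 0 to 2 of the 10 genes higher and 0 to 2 lower. Over all genes it left 1220 to 4454 higher and 1165 to 4118 lower, with the low ends, 1258 and 1204 without ADRC a and 1220 and 1165 without ADRC b, from the fits with 1 ADRC library, which is assumed to vary like the 6F libraries. The high ends come from fits with 1 6F library, assumed to vary like the ADRC pair. The pooled ratio of Hand2 was 2.83 to 6.04 with any library but ADRC b left out. Without ADRC b, which held its only ADRC read, no ratio can be formed and the bound of 0.792 gives no direction. Library size alone moved the median of all genes to 0.30 and the split of calls to 3920 higher and 2128 lower, against 3038 and 2870. The depth of the ADRC libraries limits the genes with few reads. No paired analysis was possible because the columns carry no replicate number. Unique exon reads and intron reads were not run, since the columns of a group could be mapped for 1 measure only.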

Other observations

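Some relatives of the heart-field genes that are known from other lineages had reads in 6F and none in ADRC, and were singled out after the values were seen. Nkx2-9, a homeobox gene of the ventral neural tube, had 0 and 0 reads in ADRC and 28 and 9 in 6F a and b, at least 3.56-fold higher with the group floor of 3 reads (1.63 without ADRC b and 1.83 without 6F a), while Nkx2-5 had none. Tbx22, a T-box gene of the palate, had 0 and 0 against 19 and 4 reads, at least 2.22-fold higher, although the bound fell to near 1 without ADRC b and to 0.814 without 6F a, which gives no direction. Lmx1a, a LIM-homeodomain gene of the midbrain, had 0 and 0 against 19 and 10 reads, at least 2.79-fold higher (1.52 without ADRC a and 1.28 without ADRC b), while Isl1 had 2 reads in 6F a and none in the others. Nkx2-9, Tbx22 and Lmx1a had too few reads for the test. Each had more reads in 6F a, the library with the higher summed level of the candidate introduced factors (7448 against 3345 CPM). The part of that level in these counts was not tested. Other relatives in the same lists, also with too few reads for the test, went the other way. Among them, Nkx2-1 had 4 and 1 reads in ADRC a and b and 0 in both 6F libraries. Tbr1 had 1 and 2 against 0 and 0 reads. Lhx2 had 5 and 3 against 3 and 1 reads, a pooled ratio of 0.145 (counting interval 0.0318 to 0.539).

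Hcn4, the pacemaker channel of the sinus node, had 2 and 2 reads in ADRC and 101 and 13 in 6F a and b, or 12.2 and 1.74 CPM in the 6F libraries, and was not kept for the test. Its pooled ratio was 8.24 (95% counting interval 3.13 to 30.7), and 1.98 (0.613 to 8.35) without 6F a. Tbx3 and Tbx18, which act in the same tissue, were higher in 6F b than in 6F a, by 1.42 times (1.18 to 1.71) and 1.34 times (1.02 to 1.75).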
